A study of Mus musculus with 2 samples.

Results

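Genes of 6 spermatogenesis families were followed in medullary thymic epithelial cells (mTEC). They were chosen by name: every gene whose symbol starts with Spata (spermatogenesis associated), Tssk (testis-specific serine kinase), Odf (outer dense fibre), Tex (testis expressed), Prm (protamine) or Tnp (transition protein) followed by a digit. Of 23123 gene symbols in the deposited tables, 86 met this rule: 37 Tex, 30 Spata, 8 Odf, 6 Tssk, 3 Prm and 2 Tnp genes. They were classed by general knowledge of where each gene is expressed and not by the values, although earlier results of these data were known. By this, 62 were classed as testis-restricted, 9 as expressed in testis plus ciliated cells or other organs and 14 as widely expressed. Spata45 was not classed.

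The study compared mTEC sorted by their surface MHC class II, high (mTEChi) against low (mTEClo). Thymi of wild-type B6 mice were pooled for the sort, and the labels do not give the age. Each group is 1 library of poly(A)-selected RNA, read as pairs of 100 bases for mTEChi and as single reads of 50 bases for mTEClo. Library type and group therefore cannot be told apart, no difference has a replicate check, and no test was made.

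In the testis, germ cells pass through meiosis and then reshape into sperm. Transition proteins and then protamines replace the histones of the sperm nucleus, outer dense fibres stiffen the tail, and the Tssk kinases act in the late, post-meiotic stages. MHC-II-high mTEC include cells with the regulator Aire and are known for low-level transcription of genes of many organs, which exposes developing T cells to those antigens. Several genes of these families carry a testis name but work in most cells, so the classes are described separately.

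From the steps of the values, mTEChi held about 115000000 reads and mTEClo 20900000. The 7 thymic epithelial markers were present in both, with the surface marker Epcam at 198 RPKM (reads per kilobase of transcript, scaled to the depth of the library) in mTEChi and 127 RPKM in mTEClo. Of the 7, Foxn1 and Cldn4 were at least 2-fold higher in mTEChi and Krt14 and Krt5 at least 2-fold lower. Over all genes, 10.8% were higher and 6.3% lower by this measure. Aire was listed at 122 RPKM in mTEChi and 15.9 RPKM in mTEClo. Dendritic cell and macrophage markers had 9 of 14 measured genes at least 2-fold higher in mTEChi, with summed levels of 584 and 154 RPKM. Fibroblast markers had 8 of 9 at least 2-fold lower, with sums of 48.7 and 717 RPKM, and endothelial markers 8 of 8, with sums of 18.6 and 154 RPKM. Of 8 B cell markers 3 were higher, with sums of 53.9 and 17.3 RPKM, and of 12 thymocyte markers 2, with sums of 21.4 and 15.5 RPKM. The part of these cells in the results below was not tested. In such bulk libraries fewer cells of a type and less RNA per cell cannot be told apart.

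Most testis-restricted genes were detected at a low level in mTEChi and listed at 0 in mTEClo. Of the 62, 8 (12.9%) were listed at 0 in mTEChi and 55 (88.7%) in mTEClo, beside 9.84% and 30.9% of all genes. Of the genes above 0 in mTEChi, 20 had under 3 reads expected in mTEClo from that level, and at that depth 92.3% of all genes were listed at 0 there. At 1 RPKM or more, 8 of 62 (12.9%) were listed in mTEChi and 1 of 62 in mTEClo, beside 61.5% and 55.4% of all genes. At 0.1 RPKM or more the counts were 36 and 6, beside 81.9% and 67.8% of all genes. The class had a median of 0.168 RPKM in mTEChi, and its levels there summed to 34.01 RPKM, against 5.33 RPKM in mTEClo. Tnp2 alone made up 27.6% of that sum in mTEChi and 68.6% in mTEClo, and without it the sums were 24.6 and 1.67 RPKM. No ratio of these sums is given, since 55 of the 62 genes are listed at 0 in mTEClo and such a 0 can be a failed estimate.

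**Figure D1:**
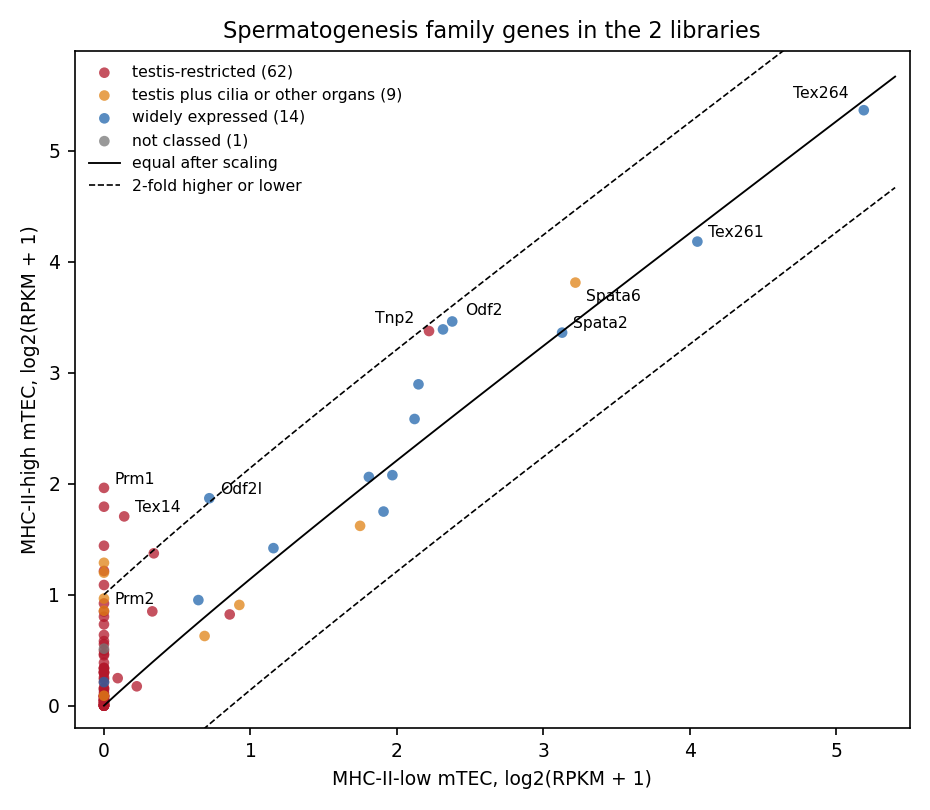
Level of each of the 86 genes in MHC-II-low (horizontal) and MHC-II-high mTEC (vertical), as log2(RPKM + 1), coloured by class, 1 library per axis. Testis-restricted genes lie mostly along the left edge, at 0 in mTEClo, and widely expressed genes lie between the 2-fold lines, apart from Odf2l.

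Prm1, Prm2 and the transition proteins are small basic proteins that pack the DNA of the sperm head, whereas Prm3, named for its place among them, is not a basic DNA-packing protein. Tnp2, Prm3, Prm2 and Prm1 follow one another in 1 chromosomal cluster, and Tnp1 lies on another chromosome. The stretches of 120 bases before the annotated start of each are shown because these late germ-cell genes differed widely in level. The sequences are from RefSeq (GRCm38.p6, not the build mm9 of the authors), each on the minus strand and printed 5′ to 3′. Capitals mark the exact TATA box letters TATAAA on either strand, which in Prm2 read on the opposite strand. Related stretches, such as tataag of Prm1 and tatataa of Tnp2, are not marked.
Prm1, chr16:10796824-10796943: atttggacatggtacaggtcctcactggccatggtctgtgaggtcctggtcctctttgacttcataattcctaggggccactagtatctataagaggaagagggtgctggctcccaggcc
Prm2, chr16:10792106-10792225: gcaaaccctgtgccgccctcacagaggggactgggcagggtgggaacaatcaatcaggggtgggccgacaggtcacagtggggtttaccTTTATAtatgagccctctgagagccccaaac
Prm3, chr16:10790915-10791034: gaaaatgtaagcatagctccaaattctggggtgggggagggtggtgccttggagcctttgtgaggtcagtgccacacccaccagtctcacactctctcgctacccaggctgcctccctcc
Tnp2, chr16:10788656-10788775: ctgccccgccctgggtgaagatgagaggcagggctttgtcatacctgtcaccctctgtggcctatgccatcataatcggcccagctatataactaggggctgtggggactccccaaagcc
Tnp1, chr1:73015900-73016019: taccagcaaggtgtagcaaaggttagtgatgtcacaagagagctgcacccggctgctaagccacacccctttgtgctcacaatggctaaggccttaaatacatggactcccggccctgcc

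Of the members, 74 had a promoter entry of 300 bases (250 before and 50 after the start). The cyclic AMP response element, the site bound by the germ-cell regulator Crem, was searched as TGACGTCA and as its core TGACG, which the full element contains, on both strands. Only exact matches were counted. Stretches that differ from the full element by 1 base, such as tgacttca before Prm1 and tgatgtca before Tnp1, were not. The counts below therefore do not show that a gene lacks a site for Crem. The full element was present in 0 of 52 testis-restricted genes and in 1 of 13 widely expressed genes, beside 2.03% of all 27025 genes of the table. The core was present in 7 of 52 testis-restricted genes (13.5%) and in 6 of 13 widely expressed genes, beside 23.0% of all genes. The exact letters TATAAA, on either strand and at any place in the entry, were present in 5 of 52 testis-restricted genes (9.62%). Prm2 was among them, beside 15.7% of all genes. Spata7, a widely expressed gene of the photoreceptor cilium, held the full element, shown in capitals in 40 bases before and 20 after its start on the plus strand of GRCm38.p6.
Spata7, chr12:98628102-98628161: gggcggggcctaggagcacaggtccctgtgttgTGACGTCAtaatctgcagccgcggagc

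Tnp2, which encodes the second transition protein, was the highest of the testis-restricted genes in both libraries. It was listed at 9.37 RPKM in mTEChi, from about 596 reads, and at 3.65 RPKM in mTEClo, from about 42.2 reads. For comparisons mTEClo values were multiplied by 1.21, a shift of 0.27 on the log2 scale that centres the genes averaging at least 10 RPKM. The change of Tnp2 was 0.94, given here and below as log2 of (high + 1) over (scaled low + 1), a scale that understates the change of genes near or under 1 RPKM. Without the pseudocount the log2 ratio was 1.09, with a 95% counting interval from 0.64 to 1.58. The intervals come from an exact binomial on the recovered reads and cover counting error only, since reads without molecular identifiers are not independent molecules. Whether both mates of a pair were counted in mTEChi is not known here, and if they were, the intervals are too narrow.

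Prm1, a protamine of the sperm nucleus, was listed at 2.90 RPKM (about 156 reads) in mTEChi and at 0 in mTEClo. Prm2 was listed at 1.12 RPKM (about 80.1 reads) in mTEChi and at 0 in mTEClo. Prm3 had 0.193 RPKM and Tnp1, the first transition protein, 0.102 RPKM in mTEChi, and both were listed at 0 in mTEClo. On the RPKM scale, which is per length, the 5 genes thus ran from 0.102 to 9.37 in mTEChi, and Tnp2 stood apart as the one above 0 in mTEClo.

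The neighbours of the cluster are not germ-cell genes. Socs1, an inhibitor of cytokine signalling that lies beside Tnp2, was listed at 38.6 RPKM in mTEChi and 34.9 RPKM in mTEClo, a change of -0.13 (its sign turns without scaling). Rmi2, a genome stability gene on the Prm1 side, had 0.319 and 0.256 RPKM. Socs1 was thus above Tnp2 in both libraries, and Rmi2 was above 0 in both.

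**Figure D2:**
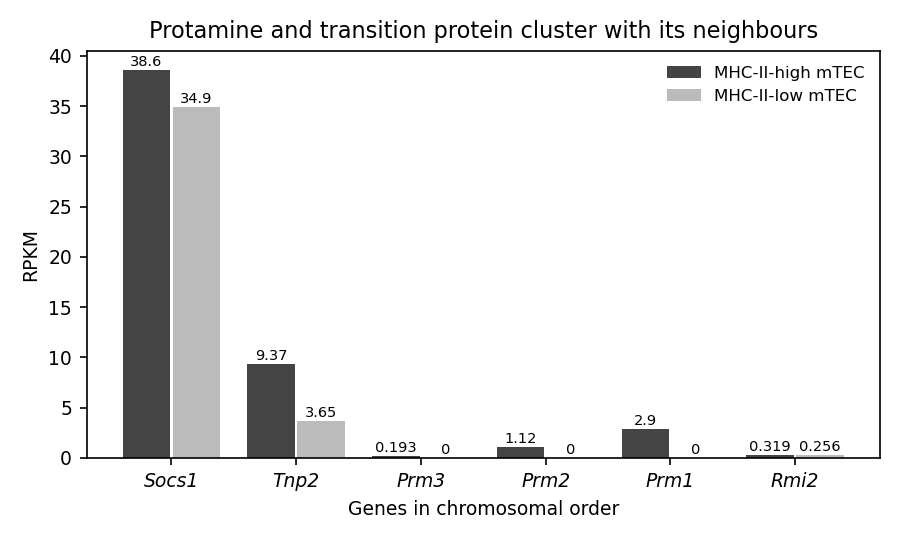
RPKM of Tnp2, Prm3, Prm2 and Prm1 and of Socs1 and Rmi2 beside them, in chromosomal order, with 1 bar per library. Tnp2 reaches 9.37 and 3.65 RPKM and the Prm genes stay at or below 2.90 RPKM in mTEChi and are listed at 0 in mTEClo.

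The Odf family covers the tail fibres and centriolar relatives. Odf2, which also builds the appendages of centrioles and is widely expressed, was listed at 10.01 RPKM in mTEChi and 4.19 RPKM in mTEClo, a change of 0.86. Its 5 transcript lines ran from 7.86 to 10.01 RPKM in mTEChi and from 3.65 to 4.19 RPKM in mTEClo. Odf2l, its widely expressed relative, had 2.65 and 0.646 RPKM, a change of 1.04, with a log2 ratio of 1.76 (counting interval 1.25 to 2.35) without the pseudocount. Odf2l was the 1 widely expressed gene past 2-fold.

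Among the other Odf genes, Odf3l2 was listed at 1.32 RPKM in mTEChi and at 0 in mTEClo. Odf3l1 had 1.59 RPKM (about 197 reads) and 0.266 RPKM (about 5.99 reads), a change of 0.97 and a log2 ratio without pseudocount of 2.31 (1.16 to 3.77). Odf3b, classed with the ciliated genes, had 1.44 RPKM and was listed at 0 in mTEClo. The classical tail component Odf1 was lower on this scale, at 0.236 RPKM in mTEChi, with Odf3 at 0.113 and Odf4 at 0.0157 RPKM, and all 3 were listed at 0 in mTEClo. The tail-fibre gene best known from sperm was thus under the level of Odf3l1 and Odf3l2 in mTEChi.

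The Tssk kinases of late spermatids were all under 1 RPKM. Tssk6 had 0.801 RPKM (about 123 reads) in mTEChi and 0.257 RPKM (about 7.16 reads) in mTEClo, with a log2 ratio without pseudocount of 1.37 (0.32 to 2.75). Tssk3 had 0.8001 RPKM in mTEChi, Tssk4 0.266 and Tssk1 0.264 RPKM. Tssk5 at 0.0403 and Tssk2 at 0.0376 RPKM were the lowest. These 5 were listed at 0 in mTEClo, and Tssk6 was the member of the family above 0 in both. Tssk1 and Tssk2 are close relatives, so reads may be split between them with uncertainty.

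Among the Tex genes, Tex14 had the highest counting interval of the 7 testis-restricted genes above 0 in both libraries. Tex14 is needed for the bridges that join dividing germ cells. It was listed at 2.26 RPKM from about 1235 reads in mTEChi and at 0.1005 RPKM from about 9.99 reads in mTEClo. The change was 1.54, and the log2 ratio without pseudocount 4.22, with a counting interval from 3.33 to 5.28. Its neighbour Rad51c, a DNA repair gene, had 0.796 and 0.0972 RPKM.

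Tex35 was listed at 2.46 RPKM (about 258 reads) in mTEChi and at 0 in mTEClo. Tex33, like Spata31d1a below, was listed slightly lower in mTEChi, with 0.767 RPKM in mTEChi and 0.813 RPKM in mTEClo, a change of -0.17 (its sign turns when the upper quartiles are set equal) with a counting interval of the log2 ratio from -1.14 to 0.51. Meiotic genes of the family stayed under 1 RPKM. Tex11, an X-linked gene of meiotic crossing over, had 0.742 RPKM, Tex15, needed for meiotic repair, 0.0632 RPKM, and Tex12, of the synaptonemal complex, 0.0141 RPKM in mTEChi, with 0 in mTEClo for each. Tex11 has 2 transcript lines, and the second was at 0.333 RPKM. Tex19.1 and Tex19.2, linked to the control of transposons, had 0.411 and 0.468 RPKM, and Tex101, a surface protein of germ cells, 0.661 RPKM, with 0 in mTEClo for all 3.

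Among the Spata genes of the testis-restricted class, Spata19, a mitochondrial protein of the sperm midpiece, was listed at 1.71 RPKM (about 137 reads) in mTEChi and at 0 in mTEClo. Spata21 had 0.554 RPKM, Spata9 0.3804 RPKM and Spata22, a meiotic recombination gene, 0.308 RPKM in mTEChi, again with 0 in mTEClo. Spata31d1a, with 0.128 and 0.168 RPKM, and Spata31d1b, with 0.187 and 0.0671 RPKM, were listed above 0 in both libraries. They belong to a group of near copies, so their reads may be split with uncertainty. The counting interval of the log2 ratio ran from -1.49 to 0.26 for Spata31d1a and from 0.03 to 2.69 for Spata31d1b.

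Of the 62 testis-restricted genes, 8 were listed at 0 in both libraries: Spata4, Spata16, Tex13a, Tex13b, Tex13c1, Tex28, Tex46 and Tex55. A further 18 were above 0 but under 0.1 RPKM in mTEChi, 28 lay between 0.1 and 1 RPKM, and 8 were at 1 RPKM or more. The median gene of the class rested on about 21.8 reads in mTEChi.

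**Figure D3:**
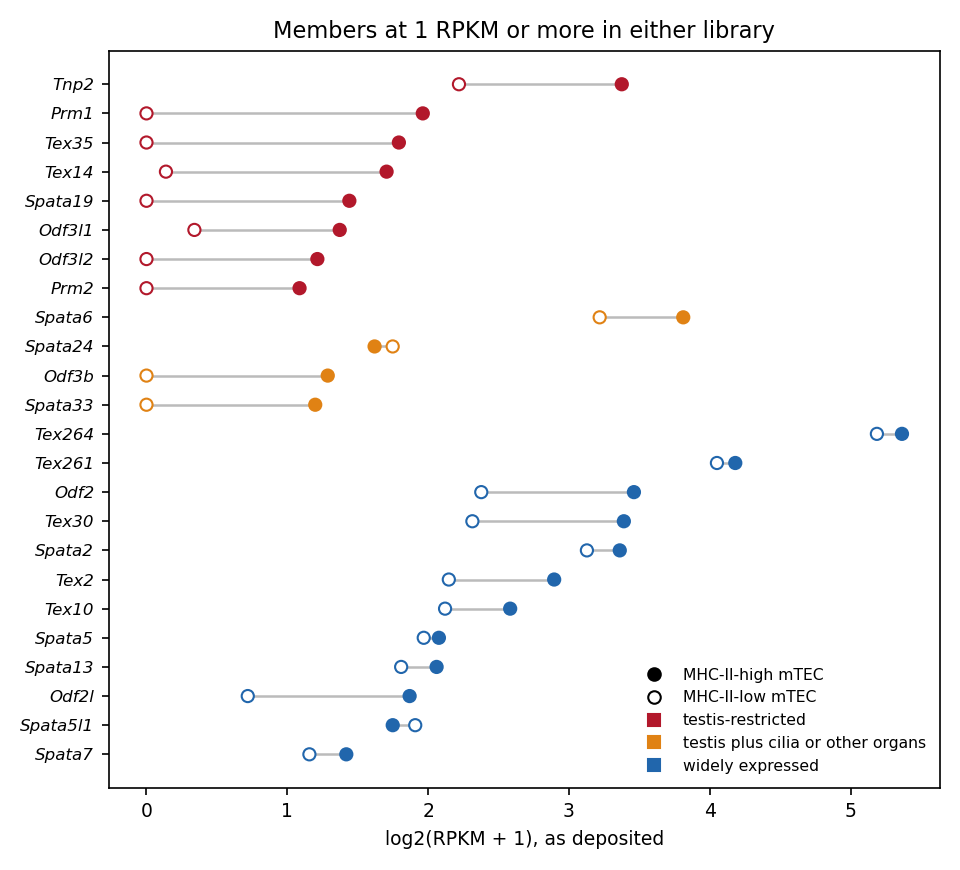
Levels of the 24 genes at 1 RPKM or more in either library, as log2(RPKM + 1), with filled points for MHC-II-high and open points for MHC-II-low mTEC. Of the 8 testis-restricted genes, 5 are at 0 in mTEClo, whereas the 12 widely expressed genes are above 0 in both.

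On the scale with a pseudocount of 1 RPKM, 9 of the 86 genes were at least 2-fold higher in mTEChi and 0 lower. Over all 23123 genes, 10.8% were at least 2-fold higher and 6.3% lower, so the share of members called higher is near the background. By class, 6 of 62 testis-restricted genes were past 2-fold (Prm1, Prm2, Odf3l2, Spata19, Tex14 and Tex35), with 2 of 9 in the class of testis plus other organs (Odf3b and Spata33) and 1 of 14 widely expressed (Odf2l). The median change was 0.18 over all 86 genes, 0.16 in the testis-restricted class and 0.15 in the widely expressed class, beside 0.04 over all genes. Levels this low make the count depend on the pseudocount. With 0.1 RPKM in place of 1, 40 of 86 members (46.5%) and 33 of 62 testis-restricted genes (53.2%) were past 2-fold higher, beside 24.9% of all genes, and 0 were lower, beside 10.1%. With 5 RPKM it was 0 of 86 in either direction, beside 3.79% of all genes higher and 2.8% lower. Of the 86 genes, 29 passed a filter of 0.5 RPKM on the mean. A gene called higher has at least 1 RPKM in mTEChi and passes by construction, as all 9 did. Of the 29, 0 were lower, and of all genes that passed 16.1% were higher and 9.35% lower. Genes listed at 0 in mTEClo cannot be called lower at any pseudocount. Of the 24 genes above 0 in mTEClo, 2 were 2-fold higher and 0 lower, beside 10.5% and 9.11% of all genes above 0 there.

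Values of 0 in mTEClo were compared with all genes at the same level in mTEChi. Their share was higher among testis-restricted genes from 0.2 to 3 RPKM, near that of all genes just below, and could not be read above, where 1 gene remained. Between 1 and 3 RPKM in mTEChi, 5 of 7 testis-restricted genes (71.4%) were listed at 0 in mTEClo, against 554 of 3631 genes in all (15.3%). Between 0.5 and 1 RPKM the counts were 5 of 7 against 32.1% of all genes, and between 0.2 and 0.5 RPKM 13 of 13 against 55.1%. Between 0.1 and 0.2 RPKM they were 6 of 8 against 72.5%, and between 3 and 10 RPKM 0 of 1 against 4.21%. For other members between 0.5 and 3 RPKM, the counts were 2 of 5 and 2 of 6. By reads expected in mTEClo from the level in mTEChi, 6 of 7 testis-restricted genes with 5 to 10 expected reads were listed at 0, against 68.9% of all genes. With 10 to 20 expected reads it was 8 of 11 against 51.9%, with 20 to 50 reads 6 of 7 against 29.9%, and with 50 or more 0 of 2 against 3.53%. In mTEClo zeros also occurred in genes that all cells use, such as Rps21 of the ribosome (144 and 0 RPKM), so no fold or limit is given for a single gene listed at 0. Of the 9 genes past 2-fold, 7 are listed at 0 in mTEClo, and their calls rest on the pseudocount and on that value. The 2 above 0 in both are Tex14 and Odf2l.

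**Figure D4:**
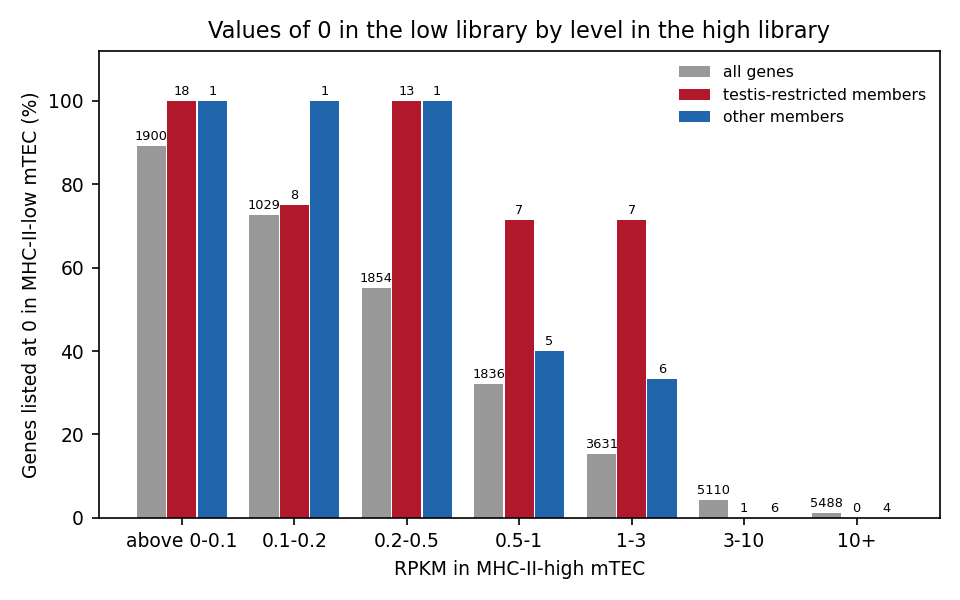
Share of genes listed at 0 in mTEClo (vertical, percent) by their RPKM in mTEChi (horizontal), for all genes, testis-restricted members and other members, with the number of genes above each bar. In the class from 1 to 3 RPKM, 71.4% of 7 testis-restricted genes and 15.3% of all genes are at 0.

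Widely expressed members were within 2-fold between the libraries, apart from Odf2l. Tex264, a receptor that brings endoplasmic reticulum to autophagy, was the highest member, with 40.2 RPKM in mTEChi and 35.4 RPKM in mTEClo. Tex261, a protein of early secretory transport, had 17.1 and 15.6 RPKM, and Spata2, an adaptor of the deubiquitinase Cyld, 9.27 and 7.74 RPKM. The changes of these 3 lay between -0.13 and -0.01 with scaling and took a positive sign without it. Tex264 was listed on 2 transcript lines, and the second had 34.4 and 30.1 RPKM.

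Tex30 had 9.48 and 3.97 RPKM, a change of 0.85, and Tex2, a lipid-binding protein of the endoplasmic reticulum, 6.44 and 3.43 RPKM, a change of 0.53. Tex10, a factor of ribosome maturation, had 4.99 and 3.35 RPKM, and Spata13, an exchange factor for small GTPases, 3.17 and 2.50 RPKM. The related ATPases of ribosome maturation Spata5 (3.22 and 2.91 RPKM) and Spata5l1 (2.36 and 2.75 RPKM) lay within 2-fold, as did Spata7 with 1.67 and 1.23 RPKM. Spata2l had 0.933 and 0.563 RPKM. Spata20, placed in this class by general knowledge, went against it, with 0.158 RPKM in mTEChi and 0 in mTEClo. Reads of Spata2, Spata5 and Tex10 cannot be told apart from those of the genes that overlap them (Rnf114, Nudt6 and Invs) where the library keeps no strand.

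Genes of testis plus ciliated cells or other organs were split. Spata6, which builds the neck of the sperm tail, had 13.0 and 8.30 RPKM, a change of 0.35, and Spata24 had 2.07 and 2.36 RPKM. Spata1 (0.875 and 0.897 RPKM) and Tex9 (0.545 and 0.610 RPKM) also lay within 2-fold. The other 5 genes were listed at 0 in mTEClo. Of these, Spata33 had 1.29 RPKM, Spata18, a mitochondrial quality gene, 0.952 RPKM, Spata17 0.809 RPKM and Tex26 0.0637 RPKM in mTEChi, beside Odf3b given above. Of 26 measured ciliated-cell markers, 10 (38.5%) were at least 2-fold higher in mTEChi, 16 lay within 2-fold and 0 were lower. Among all genes 10.8% were higher and 6.3% lower. The summed levels of these markers were 96.4 and 28.3 RPKM. Foxj1, the regulator of motile cilia, had 26.8 and 9.78 RPKM, Dnaic2 of the dynein arm 20.2 and 1.45 RPKM, and Zmynd10, Tmem212, Mcidas, Ak7 and Hydin were listed at 0 in mTEClo. Others were listed higher in mTEClo or near equal, such as Ccdc153 with 1.56 and 2.64 RPKM (-0.71), Spag6 with 0.174 and 0.377 RPKM and Dnah5 with 0.691 and 0.751 RPKM. The part of ciliated-type cells in the values of Odf3b, Spata17, Spata18 and Spata33 was not tested.

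Lists of sperm genes outside these families were read in the same way. Of 25 acrosome and egg-binding genes, 2 were 2-fold higher (Dkkl1 and Acrv1) and 1 lower, Acrbp, with 1.62 and 7.26 RPKM. Izumo4 was the highest of them, with 12.8 and 5.71 RPKM. Of 27 flagellum, energy and ion channel genes, 4 were higher and 1 lower, with the testis lactate dehydrogenase Ldhc at 2.21 RPKM and 0 and Cabyr at 0.355 and 1.78 RPKM. Of 22 measured chromatin and late transcription genes, 2 were higher (H1f7 and Meig1) and 0 lower. Crem, the regulator of late spermatid genes, had 5.57 and 8.67 RPKM, a change of -0.81. In all, 8 of these 74 genes (10.8%) were at least 2-fold higher and 2 lower, beside 10.8% and 6.3% of all genes. The share called higher is thus that of the background. Of the 74 genes, 46 (62.2%) were listed at 0 in mTEClo and 9 in mTEChi, beside 30.9% and 9.84% of all genes.

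Germ-cell identity markers were mostly low as well. Of 16, 14 were listed at 0 in mTEClo and 0 in mTEChi, beside 30.9% and 9.84% of all genes. In mTEChi Ddx4 was at 0.528, Sycp3 at 0.536, Dazl at 0.305 and Sycp1 at 0.0532 RPKM. Of the 3 that were at least 2-fold higher, Dppa3, a gene of germ cells and early embryos, had 65.0 and 1.40 RPKM, Stra8, the gene of meiotic entry, 5.54 RPKM and 0, and Piwil2, of the piRNA pathway, 1.23 RPKM and 0. Zbtb16, a factor that lymphocytes also use, had 0.305 and 2.76 RPKM and was the 1 marker at least 2-fold lower. Among all genes the shares were 10.8% higher and 6.3% lower.

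**Figure D5:**
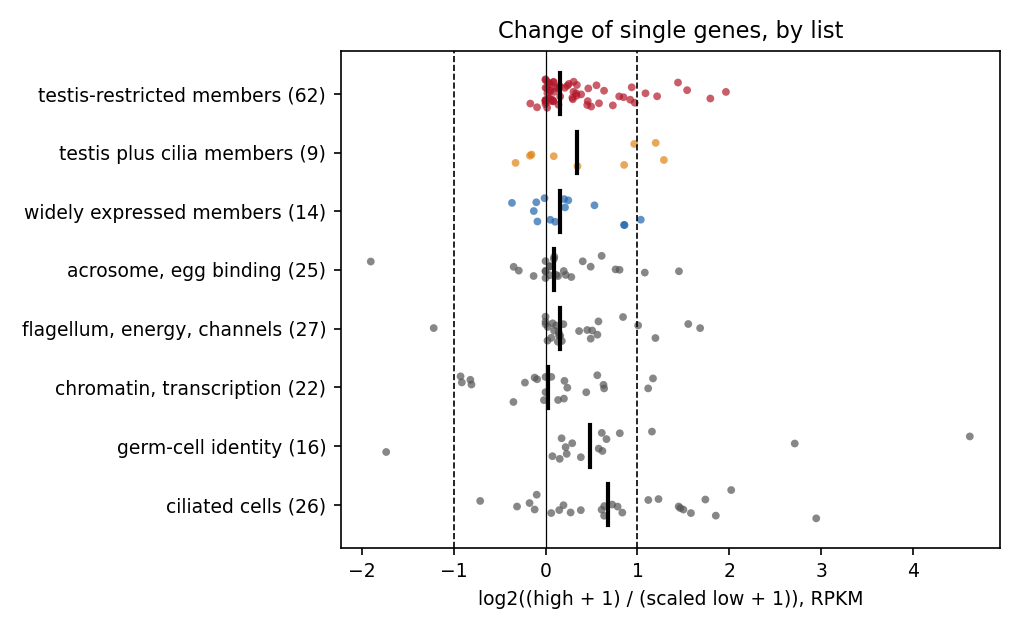
Change of each gene, as log2((high + 1)/(scaled low + 1)) of RPKM, for the 3 classes of members and 5 lists of other genes, with the number of genes in brackets, a bar at the median and dashed lines at 2-fold. The 3 classes of members have medians from 0.15 to 0.35, and ciliated-cell markers one of 0.68.

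Adjacent genes of the 8 testis-restricted members at 1 RPKM or more did not share 1 direction. Of 12 neighbours outside the families, 2 were at least 2-fold higher in mTEChi, 1 was lower and the others lay within 2-fold. With the pseudocount of 1 RPKM, neighbours under 1 RPKM in mTEChi could not be called higher. Rad51c beside Tex14 and Opcml beside Spata19 were among these. Over all genes, 10.8% were higher and 6.3% lower, and 12 genes are too few to set against these shares. The higher ones were Madcam1 (17.1 and 0.573 RPKM) beside Odf3l2 and Igsf9b (2.02 and 0.0903 RPKM) beside Spata19. The lower one was Shc2 (0.341 and 1.68 RPKM), on the other side of Odf3l2. Beside Tex35 lie Rasal2, at 5.09 and 2.93 RPKM, and Angptl1, at 0.131 RPKM and 0.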

How the data were processed

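RNA-seq of 2 mouse libraries, MHC-II-high and MHC-II-low mTEC, was used. The authors deposited 1 RPKM value per RefSeq transcript line. CASAVA, bedtools, Bowtie 1.0.0 and build mm9 appear in the submitters' processing notes without roles, and nothing states how reads shared by transcripts were counted. RefSeq genes of GRCm38.p6 named 30216 of 30794 lines, GENCODE named 180 more, and 398 were left out. All 107 lines of the members were named through RefSeq.

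A gene's value is its line with the highest mean RPKM. mTEClo was scaled by 1.21, from genes averaging at least 10 RPKM, and changes are log2 ratios with a pseudocount of 1 RPKM and a threshold of 2-fold. With 1 library per group no test was made. Reads were recovered from the steps of RPKM times GENCODE transcript length; among transcripts with 1 to 10 reads, 76.9% of 1638 in mTEChi and 65.3% of 1061 in mTEClo came within 0.1 of an integer. Of the members, 85 had a length. The members, classes and lists were chosen with earlier results of these data known. Text names members at 1 RPKM or more, all Prm, Tnp, Tssk and Odf genes, genes at 0 in both libraries, and in other lists up to 4 of the highest genes plus Aire, Crem and Foxj1; further Tex and Spata genes with known roles, the neighbours, and the 2-fold calls and defining markers of other lists were named after their values were seen. The search for TATA boxes and the pseudocount backgrounds were added then too. Alternatives were other pseudocounts, scalings, filters, transcript lines and symbols. The calling was tested on simulated data. Scripts ran in Python 3.11.15 with scipy 1.17.1, pandas 2.3.3, matplotlib 3.10.9 and numpy 2.4.6.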

Additional observations from a re-analysis of the deposited data

How the results depend on the processing

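The pseudocount moved the results most. With 0.1 RPKM, 40 members, 33 testis-restricted and 2 widely expressed genes were at least 2-fold higher and the median change was 0.80; with 5 RPKM these were 0, 0, 0 and 0.043. Widely expressed genes past 2-fold numbered 3 without scaling and 3 when upper quartiles were set equal, where the median was 0.29. The filter of 0.5 RPKM gave a median of 0.46. Leaving out genes at 0 gave 2 members and 1 testis-restricted gene higher. Testis-restricted genes in mTEChi numbered 36 at 0.1 RPKM and 1 at 5 RPKM, and in mTEClo 6 and 0, or 2 when transcript lines were summed. No member was 2-fold lower in any of these settings, beside 6.3% of all genes in the main one. However, the 62 of 86 members listed at 0 in mTEClo could not be lower in any setting. The 9 called genes remained past 2-fold in all settings but 2: a pseudocount of 5 RPKM, where 0 did, and without genes at 0, where the 2 still measured did. Called genes listed at 0 in mTEClo keep the same change under any scaling, and the filter of 0.5 RPKM cannot remove a gene called higher. These settings could therefore not change those calls. Of 323 values of 35 named genes under the alternatives, 224 stayed within 0.1 (log2), a number that includes such fixed values. Of the genes past 2-fold 0 changed sign, while genes near no change, such as Tex264, Tex261, Spata2 and Tex33, did so with the scaling. No paired analysis was possible because each group has 1 library, and leaving out a replicate was not possible for the same reason. At about 20900000 reads, low genes of mTEClo have little precision.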

Other observations

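A further 20 genes carried a name of these families only as an older symbol. They were mostly genes of general cell function and lay within 2-fold, from Alkbh7 (12.2 and 17.8 RPKM, older symbol of the Spata family) to Maats1 (1.06 and 0.190 RPKM, a change of 0.75). Catsperz, a sperm calcium channel subunit once named as a Tex gene, had 0.368 RPKM in mTEChi and 0.735 RPKM in mTEClo, whereas most testis-restricted genes above were listed at 0 in mTEClo. Capza3 and Tgif2lx1, both of the testis, were listed at 0 in both.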
